A study of Mus musculus with 48 samples.

Results

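Cathepsins are proteases that work mainly in lysosomes, the acidic compartments in which cells take proteins apart. They are made as inactive proforms, reach the lysosome largely on mannose 6-phosphate receptors, and are held in check outside it by cystatins and by some serpins. In microglia, the resident phagocytes of the brain, and in macrophages they digest engulfed material and process antigens, and in gliomas they have been studied for the breakdown of the matrix around the tumor. The genes described here are Ctsa, Ctsb, Ctsc, Ctsd, Ctsh, Ctsk, Ctsl, Ctss, Ctsz and Ctsw. They were chosen by symbol, and make up 10 of the 20300 genes listed for cells of whole tumors and 10 of the 14363 genes listed for CD11b+ cells. Ctsd is an aspartic protease, Ctsa is a serine carboxypeptidase, and the others are papain-like cysteine proteases.

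The data are single-cell RNA counts from brains of C57BL/6 mice that carried GL261, a mouse glioma line. The implanted tumor cells expressed a short hairpin RNA: a negative control in the shNC group, and in the shSELP group one directed at Selp, which encodes the adhesion receptor P-selectin, while the host's own cells were not modified. The study's methods describe male mice aged 6 weeks for implanting these cells and pools of 3 brains per group. In the whole-tumor mix, CD11b+ cells, CD45+ cells and the remaining cells were recombined in equal parts, with 2 libraries of shNC and 2 of shSELP, on day 16 by the sample labels and day 17 by the methods. It is not stated if each of the 2 libraries in a group had its own pool of mice, so their spread may not be the spread between mice. The CD11b+ cells, a myeloid sort, were taken on day 21 by the labels and day 17 by the methods, with 1 library per group, so their values have no replicates and no test. For 7 of the 8 sequencing entries of the CD11b+ shSELP library, a description line names the negative control while title, source and genotype name shSELP. The direction of each CD11b+ comparison below rests on title, source and genotype. The column names of the counts give the same groups.

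The mix held 2289 and 2297 cells in the shNC libraries with 22945972 and 22626413 UMIs (unique molecules), and 2293 cells in each shSELP library with 17398121 and 25589350 UMIs. The CD11b+ libraries held 2862 cells each, with 12628177 UMIs in shNC and 11445676 in shSELP. After cells with under 500 detected genes were left out, 8726 of 9172 mix cells and 5535 of 5724 CD11b+ cells remained. Cell barcodes shared by a pair of libraries numbered 0 to 3. In the kept mix cells the members' totals ran from 576 UMIs for Ctsk to 368388 for Ctss. In the CD11b+ cells they ran from 23 for Ctsw to 114796 for Ctss. Selp could not serve as a check of the hairpin: tumor-like cells held 1, 1, 0 and 1 UMIs of it in shNC 1, shNC 2, shSELP 1 and shSELP 2, so a difference was not detectable at this depth.

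Cells were clustered with the 10 members left out of the genes that define clusters, and each cluster was named from fixed markers. The mix gave 2693 macrophage-like, 657 microglia-like, 613 dendritic-like, 495 neutrophil-like, 1407 T-like, 606 NK-like and 925 tumor-like cells, besides 483 endothelial-like and 125 mural-like cells. Of the 20 clusters, 3 took no name. Cluster 12 (339 cells, led by Cxcl13 and Crybb1) had a median of only 1797 UMIs per cell, cluster 16 (227 cells) mixed pituitary and meningeal genes such as Prl and Dcn, and cluster 18 (156 cells) was led by immunoglobulin genes. A gate on single cells, with the same markers, gave the same name to 2595 macrophage-like, 469 microglia-like, 1388 T-like and 558 tumor-like cells. It placed 403 of the 495 neutrophil-like and 345 of the 606 NK-like cells in another class. Of the 613 dendritic-like cells it gave 284 the same name, 200 none and 129 another, so these 3 names rest on the clusters. Libraries differed in composition: microglia-like cells numbered 89 and 115 in shNC against 331 and 122 in shSELP, and tumor-like cells 353 and 282 against 107 and 183.

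Levels are given in CPM, the UMIs of a gene per 1000000 UMIs of a class in a library, as mean ± SD over the 4 mix libraries (n = 4). Ctsd, the main aspartic endopeptidase of the lysosome, stood at 7256 ± 1695 CPM in microglia-like cells, 1821 ± 309 in macrophage-like cells and 58.7 ± 7.2 in dendritic-like cells, the lowest of 10 classes. T-like cells, at 448 ± 28 CPM of Ctsd, and NK-like cells, at 355 ± 51, were above dendritic-like cells in every library. The cysteine endopeptidase Ctsb, which also trims peptides from the carboxy end, stood at 4870.1 ± 1299 CPM in microglia-like, 2698 ± 169 in macrophage-like and 1163 ± 113 in neutrophil-like cells, with NK-like cells lowest at 129 ± 23. For both genes the microglia-like level lay above the macrophage-like level in all 4 libraries, and cluster 12 lay between them.

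Ctss, the endopeptidase that cleaves the invariant chain of class II molecules in antigen-presenting cells, was high in both microglia-like and macrophage-like cells. It stood at 7787 ± 343 CPM in microglia-like and 7046 ± 498 in macrophage-like cells, ranges that overlap, and at 3508 ± 145 in neutrophil-like, 1217 ± 62 in dendritic-like and 53.7 ± 20.2 in tumor-like cells. Ctsl, an endopeptidase found in many tissues, had another order. After microglia-like cells (1453 ± 235 CPM) and clusters 12 and 16 came tumor-like cells at 790.1 ± 259, with a range overlapping that of macrophage-like cells at 639 ± 89, while endothelial-like cells stood at 319.8 ± 20.9 and dendritic-like cells at 51.7 ± 12. Tumor-like cells were thus among the higher classes for Ctsl and the lowest for Ctss.

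Among the exopeptidases, Ctsz, a carboxypeptidase, stood at 2667 ± 552 CPM in microglia-like, 1746 ± 103 in macrophage-like, 1075 ± 36 in neutrophil-like and 789 ± 76 in dendritic-like cells. Ctsc, the dipeptidyl peptidase that activates granule proteases, was highest in macrophage-like cells at 1870.4 ± 138 CPM. Its next classes did not separate, with neutrophil-like cells at 1293 ± 95, microglia-like cells at 1284 ± 215 and cluster 12 at 1228 ± 246, and its lowest class was tumor-like cells at 13.6 ± 7.2. Ctsh, an aminopeptidase, had overlapping ranges in macrophage-like cells (1012 ± 56 CPM) and microglia-like cells (959.9 ± 128), and stood at 492 ± 57 in dendritic-like cells and at 8.86 ± 4.56 in T-like cells. Within the dendritic-like class Ctsh was at 734 ± 40 CPM in cluster 15, led by Fscn1 and Ccr7, and at 407 ± 40 in cluster 11, led by Plet1 and Ccl17. Ctss went the other way between them, at 805 ± 44 CPM in cluster 15 and 1381 ± 162 in cluster 11. Ctsa, the carboxypeptidase that also protects lysosomal galactosidase and neuraminidase, stood at 662 ± 101 CPM in microglia-like cells, 425 ± 16 in macrophage-like and 211 ± 15 in neutrophil-like cells, with tumor-like cells lowest at 51.3 ± 6.0.

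Ctsw and Ctsk stood apart from these 8 genes. Ctsw, known from cytotoxic lymphocytes, was at 459 ± 49 CPM in NK-like and 375 ± 37 in T-like cells, ranges that overlap. Next of the 10 classes measured in all 4 libraries came dendritic-like cells at 12.2 ± 8.7, while cluster 18, measured in 3 libraries, held 13.3 to 30.1. With the gate on single cells the ranges of NK-like and T-like cells did not overlap, at 555 to 668 CPM in NK-like and 338 to 411 in T-like cells. The NK-like cluster held T cell markers at 2681 to 4987 CPM, above the NK markers at 849 to 1496, so its markers do not settle the name. Within the T-like class it stood at 620.3 ± 104 CPM in cluster 4, led by Cd8b1 and Gzmf, at 168 ± 43 in cluster 5, led by Ccl1 and Ifng, and at 303 ± 44 in the cycling cluster 13. Of T-like cells, 66.8% to 72.4% held a Ctsw UMI at medians of 5406.5 to 8330.0 UMIs per cell, against 1.36% to 1.84% of macrophage-like cells at medians of 11754 to 17295. Neutrophil-like cells held 0 Ctsw UMIs, which allows up to 3.26 to 4.39 CPM. Ctsk, the collagen-degrading endopeptidase of osteoclasts, was highest in cluster 16 at 58.3 ± 67.7 CPM, with 159 CPM in shNC 1 against 15.9 to 35.1 in the other libraries, so its mean there rests on shNC 1. Mural-like cells, measured in the 2 shSELP libraries, held 25.9 and 33.5 CPM of Ctsk, macrophage-like cells 10.5 ± 8.1 and T-like cells 0, which allows up to 0.770 to 1.41 CPM.

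**Figure D1:**
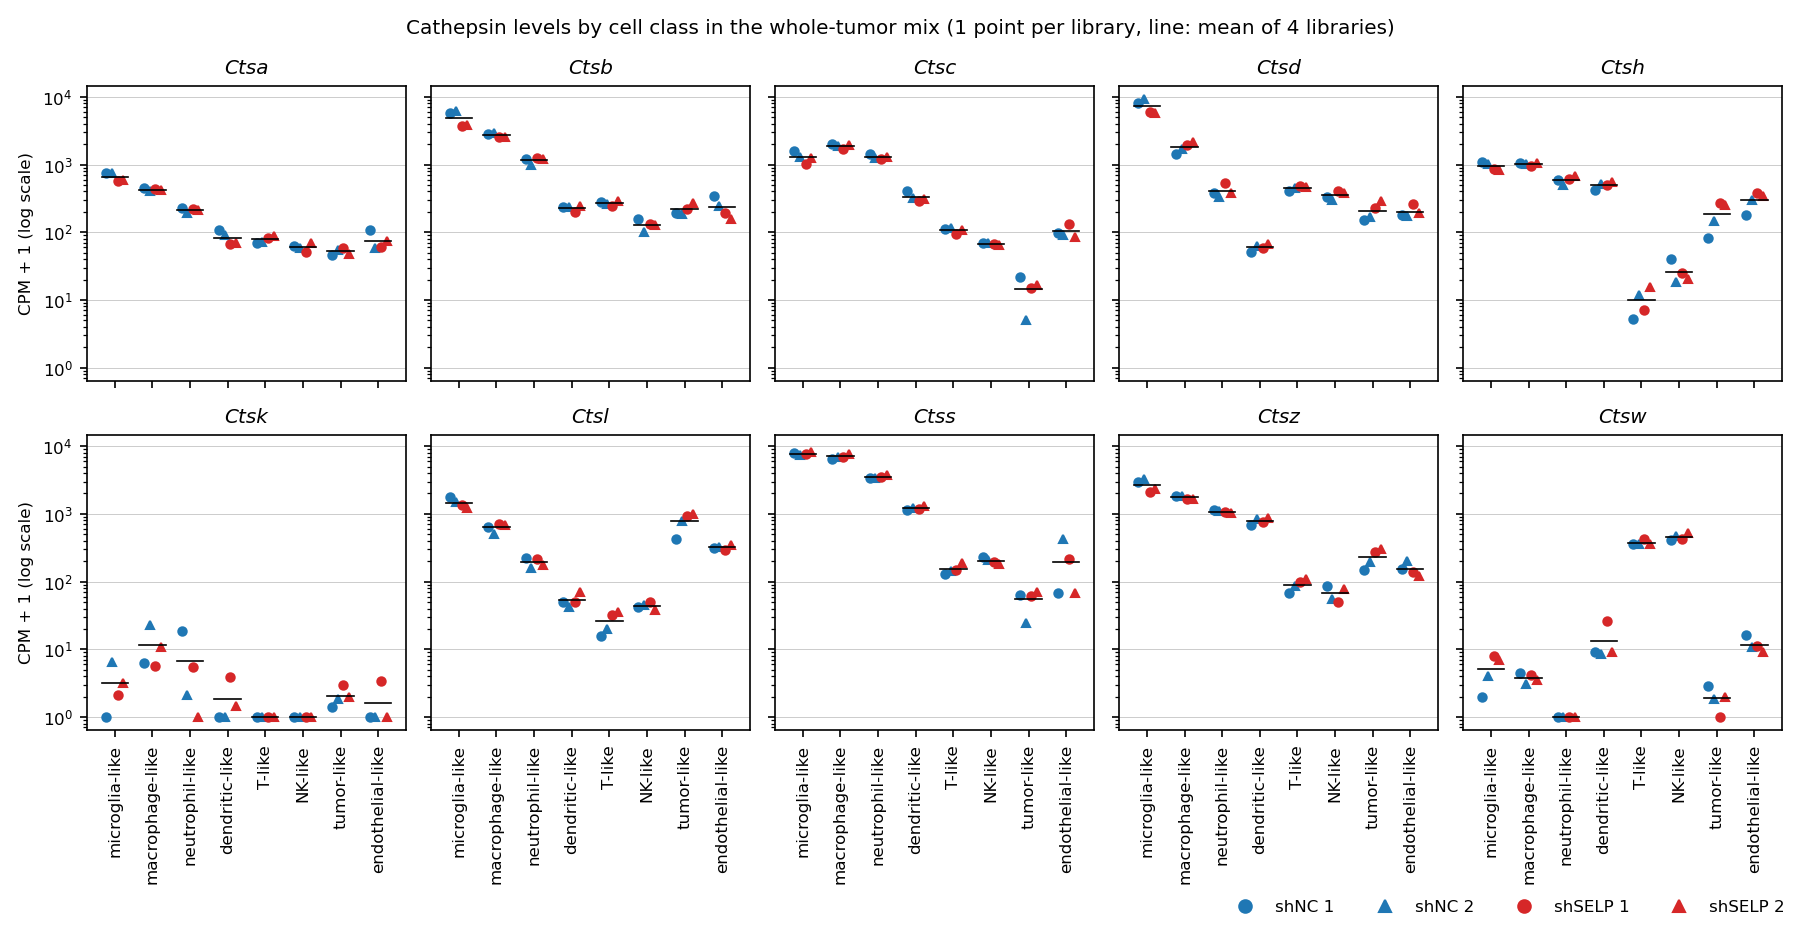
Level of each cathepsin in 8 cell classes of the whole-tumor mix, in CPM plus 1 on a log axis, with a point per library and a line at the mean of the class. Ctss sits between 6489 and 8187 CPM in both microglia-like and macrophage-like cells, while Ctsw is at 353 CPM or more in T-like and NK-like cells and at 25.2 or less in the others.

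Over 10 classes the order of the members' levels had 90 pairs of neighbours, and in 53 of them the ranges over libraries overlapped, so a good part of the middle of each order is not resolved. Droplets also hold free RNA, which was read from 8 macrophage genes (C1qa, C1qb, C1qc, Lyz2, Csf1r, Fcgr3, Ms4a6c and Aif1) in other classes. Such a gene reads free RNA only where the class does not make it itself. In tumor-like cells these genes stood at 0.216% to 1.76% of their macrophage-like level. Ctss in tumor-like cells was at 0.340% to 0.958% of its macrophage-like level and Ctsc at 0.210% to 1.06%, so both were at the level of free RNA. Ctsl in the same cells was at 65.8% to 154%, Ctsh at 7.50% to 29.1% and Ctsd at 9.73% to 13.4%, above each background gene in all 4 libraries. In T-like cells the background genes reached 0.181% to 2.16%. There Ctsh, at 0.398% to 1.39%, was within that span, while Ctsd at 21.4% to 28.2% and Ctsb at 8.90% to 11.1% were above it. In NK-like cells Ctsd was at 17.4% to 22.9% against a background of 0.239% to 5.18%. The highest background gene there in shNC 2 and shSELP 2 was Fcgr3, at 4.30% and 4.48%, which need not be free RNA in NK-like cells. Neutrophil-like cells held the 8 macrophage genes, by their sum, at 43.6% to 63.3% of the macrophage-like level. They held the 12 macrophage markers at 22727 to 25789 CPM, above the 13301 to 22123 CPM of macrophage-like cells. Their 7 neutrophil markers stood at 3630 to 5035 CPM in 3 libraries and at 30141 in shSELP 1, against 59 to 103 in macrophage-like cells. The 5 monocyte-state genes (Ly6c2, Plac8, Chil3, Vcan and Ccr2), all among the 12 macrophage markers, stood at 8719 to 9480 CPM. In macrophage-like cells they stood at 823 to 1565. So this class held monocyte genes well above their macrophage-like level beside neutrophil markers, and the markers do not settle its name. None of the 8 members tested there lay above all of the 8 macrophage genes in any library. Cathepsin levels given for neutrophil-like cells are those of a class with monocyte genes, and are not shown to be those of neutrophils. In dendritic-like cells the sum was at 4.11% to 5.94%, and Ctsh, Ctsz and Ctsw lay above each background gene in all 4 libraries.

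Macrophage-like cells fell into 4 clusters, among which several members differed. Ctsd stood at 2544 ± 269 CPM in cluster 0, led by Mmp13 and Pdpn, at 1736 ± 611 in cluster 2, led by Slamf9 and Cd72, and at 951 ± 192 in cluster 1, led by Ly6i and Inhba. Ctsb stood at 3562 ± 419 CPM in cluster 0, 2513 ± 255 in cluster 2 and 1669 ± 277 in cluster 1. For both genes every library of cluster 0 was above every library of cluster 1. Ctsl, Ctss and Ctsz were also highest in cluster 0, at 807 ± 62, 8004 ± 563 and 1957 ± 171 CPM. Microglia-like cells fell into cluster 10, led by Siglech and P2ry12, and cluster 14, led by Cst7 and Apoc1. Ctsb was at 3344 ± 686 CPM in cluster 10 and 5757 ± 1218 in cluster 14, and Ctsl was at 1811 ± 328 in cluster 10 and 1219.7 ± 308 in cluster 14.

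Likeness between genes was described as Pearson's r of log2(CPM + 10) over 45 sums of a class in a library, from 12 classes, among 2984 genes whose mean reached 50 CPM. The sums share libraries, classes and depth, so r carries no test. Among the members Ctsa and Ctsb were most alike (r = 0.940), and Ctsl and Ctsw least (r = −0.763). The 3 genes most like Ctsa were Adgre1, Ctsb and Il1a (r = 0.945, 0.940 and 0.939), and those most like Ctsb were Ctsa, Lgmn and Ccl7 (0.940, 0.922 and 0.909). Lgmn encodes legumain, a lysosomal protease that processes cathepsins. Those most like Ctsd were Timp2, Abhd12 and Ccl8 (0.899, 0.895 and 0.889), and those most like Ctsl were Cd81, Lrpap1 and Tmed3 (0.830, 0.825 and 0.825). Ctss followed Cd300c2, Cd68 and Aif1 (0.975, 0.966 and 0.958), and Ctsz followed Cd68, Ly86 and Grn (0.948, 0.945 and 0.945). Ctsc followed Slc15a3, Plekho2 and Rab20 (0.937, 0.936 and 0.924). Ctsh followed the class II genes Cd74 and H2-Ab1 (0.902 and 0.885) and Unc93b1 (0.889). Ctsw followed Gimap3, Prf1 and Sh2d2a (0.973, 0.969 and 0.965), where Prf1 is perforin of cytotoxic granules. Ctsk followed Dcn, Meg3 and Bgn (0.811, 0.797 and 0.771), matrix genes for Dcn and Bgn.

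The question of the comparison between groups is how cells around the tumor differ when the tumor cells carry the hairpin against Selp. In microglia-like cells Ctsb, Ctsd and Ctsz fell with shSELP, and Ctss did not pass the test, with a log2 fold change near 0. Ctsb stood at 5740.4 and 6219 CPM in shNC and at 3652 and 3868 in shSELP. Ctsd stood at 8207 and 9156 CPM in shNC and at 5968 and 5692 in shSELP. Ctsz stood at 3001 and 3255 CPM in shNC and at 2080.5 and 2332 in shSELP. For all 3 genes both shSELP libraries were below both shNC libraries. Ctss stood at 7892 and 7371 CPM in shNC and at 7698 and 8187 in shSELP, and its groups overlapped.

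With edgeR on UMIs summed per library and class, and log2 fold changes of shSELP over shNC (n = 2 libraries per group), Ctsb changed by −0.74 (SE 0.097, adjusted p = 0.00901). Ctsd changed by −0.64 (SE 0.0936, adjusted p = 0.0149) and Ctsz by −0.57 (SE 0.106, adjusted p = 0.0392). These 3 of the 9 members tested passed the threshold of 0.05 on the adjusted p, against 1.52% of 8659 genes in either direction and 0.612% that were lower. Ctsa, at −0.45 (adjusted p = 0.0732), Ctsl, at −0.42 (0.118), Ctsc, at −0.40 (0.180), and Ctsh, at −0.39 (0.110), did not pass, nor did Ctss, at −0.01 (0.964). Ctsw, at 1.44 with SE 0.553, rests on 1 and 6 UMIs in shNC and 24 and 11 in shSELP and did not pass (adjusted p = 0.210). Ctsk, with 0, 11, 4 and 4 UMIs, had too few counts to be tested. The median over the 9 members was −0.42 and that over all genes 0.01. In CPM, 8 of the 9 members had groups that did not overlap, 1 higher and 7 lower, against 48.7% of genes.

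The call of Ctsz was lost without shNC 1 (−0.59, adjusted p = 0.0660) and without shNC 2 (−0.56, adjusted p = 0.0807), and also at clustering resolution 1.2 (adjusted p = 0.0539) and with the gate on single cells (0.0927). The number of members called was 2 without shNC 1, 2 without shNC 2, 4 without shSELP 1, which added Ctsl (−0.50), and 5 without shSELP 2, which added Ctsa (−0.48) and Ctsc (−0.55). Of all genes these fits called 1.03%, 0.780%, 2.94% and 5.98%, and Ctsb and Ctsd were called in all 4. The class also changed in make-up: cluster 14 held 55.9% of microglia-like cells in shNC and 32.5% in shSELP, and cluster 10 held 44.1% and 67.5%. In cluster 14 alone Ctsb stood at 6691 and 6907 CPM in shNC against 4511 and 4918 in shSELP, and Ctsd at 9073 and 9428 against 5909 and 6208. In that cluster Ctsd passed the test (−0.69, adjusted p = 0.0340), while Ctsb (−0.61, adjusted p = 0.0770) and Ctsz (−0.48, adjusted p = 0.288) did not. In cluster 10 alone Ctsb stood at 3534 and 4229 CPM in shNC against 2893 and 2721 in shSELP. There edgeR called 0 of 8 members against 0.0813% of genes, and 4 had an unadjusted p under 0.05, as had 551 of 6147 genes. It gave −0.50 for Ctsb (adjusted p = 0.238), −0.42 for Ctsd (0.346) and −0.38 for Ctsz (0.392). With the shallow cluster 12 added to the class, 0 of 9 members were called against 0.178% of genes. In that fit 7 members had an unadjusted p under 0.05, as had 1265 of 8999 genes. Ctsb was at −0.68 (adjusted p = 0.0714), Ctsd at −0.57 (0.0987) and Ctsz at −0.53 (0.126). DESeq2 was not run on these 3 alternatives, which were chosen after seeing the data. On the whole class DESeq2 called 6 of 8 members, all lower, and 125 of the 779 genes that its own filter kept (16%).

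**Figure D2:**
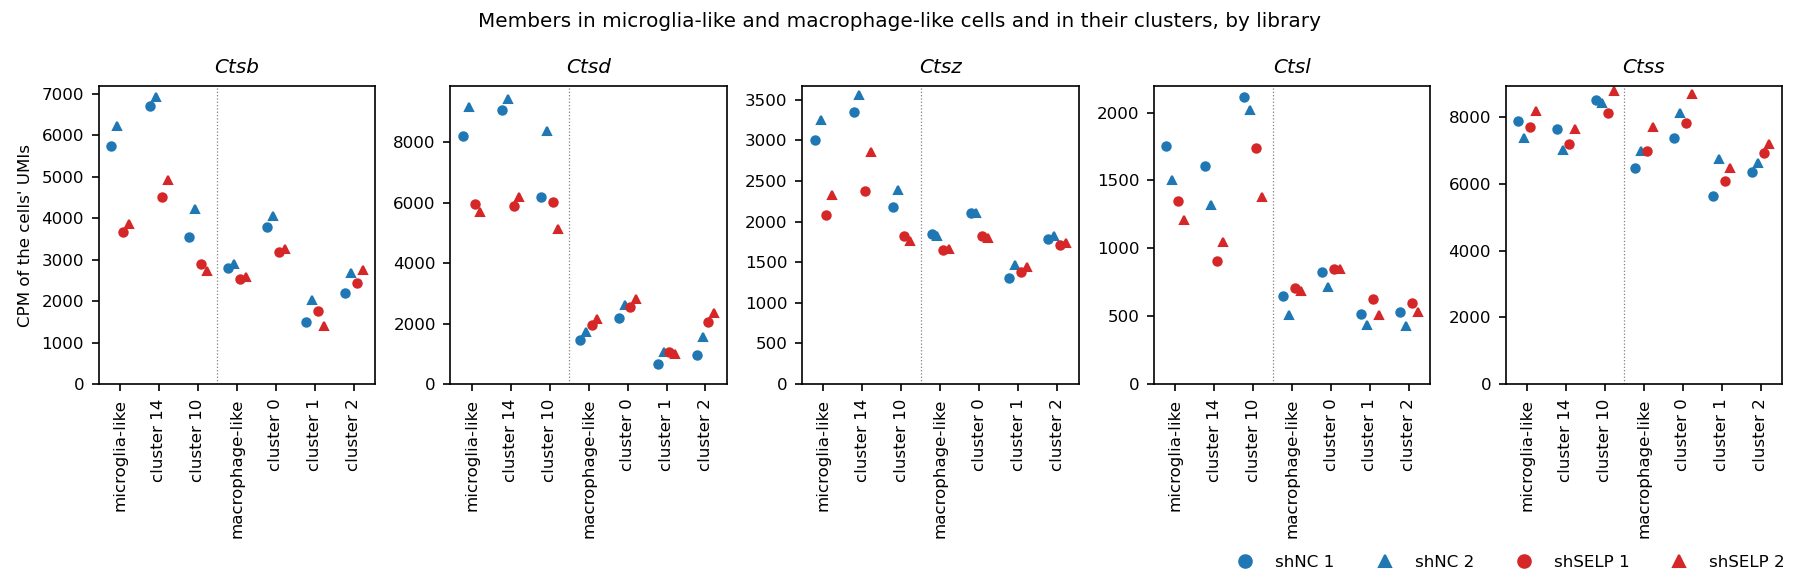
CPM of Ctsb, Ctsd, Ctsz, Ctsl and Ctss per library in microglia-like cells and their clusters 14 and 10, and in macrophage-like cells and their clusters 0, 1 and 2, on linear axes, with a point for each shNC and shSELP library. In microglia-like cells both shSELP libraries lie below both shNC libraries for Ctsb, Ctsd, Ctsz and Ctsl, and the groups overlap for Ctss.

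Genes that work with cathepsins in the lysosome were read from fixed lists. In microglia-like cells the receptors and cofactors of lysosomal targeting and processing had 10 of 10 tested, 1 lower and 0 higher, with a median log2 fold change of −0.27 against 0.01 over all genes. The gene that fell was Grn, progranulin, from 1948 and 2255 CPM in shNC to 1531 and 1508 in shSELP (−0.54, adjusted p = 0.0413). Of 18 lysosomal hydrolases 1 fell, Gusb (beta-glucuronidase), from 265 and 287 CPM to 168 and 176 (−0.75, adjusted p = 0.0245), and 2 of the 18 had a positive estimate, with a list median of −0.25. Of the 11 tested genes of lysosomal membrane and acidification 2 fell and the median was −0.28. Cd63, a tetraspanin of late endosomes, went from 1905 and 2030 CPM to 1168 and 1220 (−0.79, adjusted p = 0.00901), and Npc2, a cholesterol carrier, from 2359 and 2542 to 1728 and 1881 (−0.51, adjusted p = 0.0447). Of the 5 tested inhibitors of cathepsins 1 fell, Serpinb6a, from 62.8 and 57.4 CPM to 32.3 and 30.4 (−0.98, adjusted p = 0.0316).

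Other lists around the cathepsins gave no gene past the test in microglia-like cells. All 4 lysosomal transcription factors had positive estimates with a median of 0.54, and the more abundant ones were Tfe3, at 0.65 (adjusted p = 0.121), and Mitf, at 0.43 (0.394). The class II substrates had a median of 0.22, with Cd74, the invariant chain, at 0.36 (adjusted p = 0.492) and H2-Aa at 0.25 (0.622). Of 11 other cathepsins 2 were tested, Ctsf at 0.38 (adjusted p = 0.425) and Ctso at 0.33 (0.436). The granule proteases Gzma, at −1.97 (adjusted p = 0.209), and Gzmb, at −1.61 (0.199), rested on shNC 2, with 95.4 CPM of Gzma there and 0.952 in shNC 1. The 8 myeloid background genes had a median of −0.16, with C1qa at −0.24 (adjusted p = 0.220) and C1qb at −0.11 (0.583).

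Marker lists moved with the microglia-like result. The 10 microglia markers had 2 higher and 0 lower, Siglech from 199.8 and 159.7 CPM to 410.4 and 291.3 (0.91, adjusted p = 0.0417) and Sall1 from 34.3 and 33.1 to 61.8 and 61.4 (0.81, adjusted p = 0.0447). Their sum, with Sparc most abundant and 0 markers at 0, was 2363 and 2460.2 CPM in shNC and 3904 and 2624 in shSELP. The 5 lipid-associated genes had 2 lower, Gpnmb from 600.5 and 665 CPM to 121 and 214 (−2.0, adjusted p = 0.00384) and Fabp5 from 1120.1 and 947 to 354 and 387 (−1.55, adjusted p = 0.00200). The sum of that list was 4391 and 4588 CPM in shNC and 2938 and 3097 in shSELP. Cd72 of the Ms4a7 state fell by 1.15 (adjusted p = 0.00691), Stmn1 of the cycling list by 0.88 (adjusted p = 0.0426) and Cox6a2 of the plasmacytoid list by 1.0 (adjusted p = 0.0392). The 12 macrophage markers, with Lyz2 most abundant, summed to 3765 and 2988 CPM in shNC and 3699 and 2522 in shSELP. T cell markers summed to 6.66, 76.6, 81.2 and 95 CPM and tumor markers to 43.8, 45.5, 26.3 and 40.0 in the same library order. Dendritic markers summed to 125 and 102 CPM in shNC and 182 and 160 in shSELP, and neutrophil markers to 59.0 and 63.8 against 104 and 80.0. Plasmacytoid markers, at 60.9 and 88.0 against 44.0 and 56.0, and cycling genes, at 109 and 122 against 68.3 and 79.0, went the other way. The part of these markers in the result for Ctsb, Ctsd and Ctsz was not tested.

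In macrophage-like cells edgeR called 0 of the 10 members against 1.36% of 10843 genes, and 2 members had an unadjusted p under 0.05, as had 1706 of these genes. DESeq2 called 1 of 10, Ctsd, against 1.47% of 11390 genes. Ctsd stood at 1448 and 1714 CPM in shNC and at 1956 and 2164 in shSELP, so the groups did not overlap, and its log2 fold change was 0.45 (SE 0.109, adjusted p = 0.0873). DESeq2 gave Ctsd an adjusted p of 0.0185, and edgeR with a replicate block gave 0.0402. Ctsl stood at 649 and 511 CPM in shNC and at 706 and 689 in shSELP (0.33, SE 0.134, adjusted p = 0.280). Ctsb stood at 2788 and 2890.2 CPM against 2534 and 2579 (−0.08, adjusted p = 0.734), and Ctsz at 1846 and 1824 against 1652 and 1662 (−0.08, adjusted p = 0.747). Both had groups that did not overlap but sizes near 0. In CPM, 4 of 10 members did not overlap between groups, 2 higher and 2 lower, against 48.1% of genes. Ctss was at 0.20 (adjusted p = 0.390), and the median over the 10 members was 0.02.

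The macrophage-like class also changed in make-up. Cluster 0 held 30.4% of it in shNC and 39.2% in shSELP, cluster 1 held 26.2% and 36.4%, cluster 2 held 33.7% and 21.5%, and the cycling cluster 17 held 9.73% and 2.90%. In cluster 2 alone Ctsd stood at 955 and 1573 CPM in shNC and at 2067 and 2348 in shSELP (0.83, SE 0.168, adjusted p = 0.0619). In cluster 0 it stood at 2180.3 and 2610 in shNC and at 2556 and 2828 in shSELP, and in cluster 1 at 666 and 1067 against 1063 and 1010.4, with overlapping groups in both. Ctsk, with 5.26 and 22.1 CPM in shNC and 4.73 and 9.85 in shSELP, did not pass (−0.68, adjusted p = 0.613), but was called lower without shNC 1 (−1.36, adjusted p = 0.0127). Without shNC 2 its estimate was 0.63, so its direction rests on 1 library.

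The lysosomal lists had medians near 0 in macrophage-like cells, 0.05 for targeting and processing, 0.02 for hydrolases and 0.05 for membrane and acidification, against −0.01 over all genes. Of these lists 1 gene rose, Igf2r, the large mannose 6-phosphate receptor, from 11.3 and 13 CPM to 23.1 and 23.7 (1.03, adjusted p = 0.0132). Of the hydrolases, Hexa was at 0.14 (adjusted p = 0.513). The most abundant genes of the membrane list were Lamp1, at 0.37 (adjusted p = 0.109), and Npc2, at 0.19 (0.425). The inhibitors Cst3, at −0.24 (adjusted p = 0.328), and Cstb, at 0.33 (0.128), did not pass. The other cathepsins Ctso, at 0.18 (adjusted p = 0.538), and Ctse, at −0.03 (0.986), did not pass either. The 6 class II substrates had a median of 0.16, with Cd74 at 0.26 (adjusted p = 0.417) and H2-Ab1 at 0.27 (0.307), and the transcription factors one of 0.17, with Tfe3 at 0.05 (0.906) and Mitf at 0.29 (0.398). Gzma was at −1.35 (adjusted p = 0.229) and Gzmb at −1.17 (0.240). Of marker genes Lyz2 rose from 7958 and 9434 CPM to 12754 and 15202 (0.76, adjusted p = 0.0250), and S100a8 from 14.4 and 18.4 to 30.3 and 43.3 (1.28, adjusted p = 0.0182). Cycling genes fell, Pclaf by 1.90 (adjusted p = 0.00877), Stmn1 by 1.60 (0.00877) and Birc5 by 1.45 (0.0369). Lpl fell by 2.52 (adjusted p = 0.0233), Cd72 by 1.02 (0.0132), Batf3 by 1.33 (0.0132) and Ccr7 by 1.07 (0.0231). H19, a tumor marker, fell by 2.36 (adjusted p = 0.0177), from 13.9 and 8.32 CPM to 1.70 and 2.25, and Ly6d fell from 7.14 and 5.83 CPM to 0 and 0.225 (adjusted p = 0.00877). The part of these markers in the value of Ctsd was not tested.

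Whether microglia-like and macrophage-like cells differ in their response to the group was tested directly, with both classes in 1 fit and library as a block. Ctsd, Ctsl and Ctsb responded differently: the microglia-like log2 fold change minus the macrophage-like one was −1.11 for Ctsd (SE 0.121, adjusted p = 0.000553). It was −0.78 for Ctsl (SE 0.126, adjusted p = 0.00985) and −0.67 for Ctsb (SE 0.115, adjusted p = 0.0118). These are 3 of 10 members, all lower, against 1.05% of 10590 genes in either direction and 0.529% that were lower. Ctsz, at −0.51 (adjusted p = 0.0676), and Ctsa, at −0.52 (0.0787), did not pass, and Ctss was at −0.22 (0.488). For Ctsl neither class alone passed its own test. The call of Ctsb was lost without shNC 2 (−0.65, adjusted p = 0.0653), Ctsz was called without shSELP 2 (−0.59, adjusted p = 0.0230), and Ctsd and Ctsl were called in all 4 fits that left out a library. Leaving out a library was the only alternative run on this difference. DESeq2, the gate, other resolutions, thinned cells and shallow clusters moved were not tried on it. The clusters that make up each class shifted between groups as given above, and their part in this difference was not tested.

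Over the fixed lists, the test of this difference also called genes that work with cathepsins. Of 10 genes of targeting and processing 2 were lower, Igf2r (−1.77, adjusted p = 0.0270) and Psap (−0.58, 0.0256), the precursor of the saposins. Of 12 genes of membrane and acidification 2 were lower, Lamp1 (−0.67, adjusted p = 0.0178) and Npc2 (−0.72, 0.0107). Of 6 tested inhibitors, cystatins Cstb (−0.83, adjusted p = 0.00684) and Cst7 (−1.62, 0.0257) were lower and Cst3 (0.94, 0.0270) was higher. The medians were −0.30 for targeting and processing, −0.38 for hydrolases and −0.38 for membrane and acidification, against −0.0010 over all genes. Among marker lists Gpnmb (−2.06, adjusted p = 0.00324), Fabp5 (−1.44, 0.00246), Fn1 (−1.34, 0.0256) and Ms4a7 (−0.70, 0.0425) were lower and Lpl (2.12, 0.000988) was higher.

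**Figure D3:**
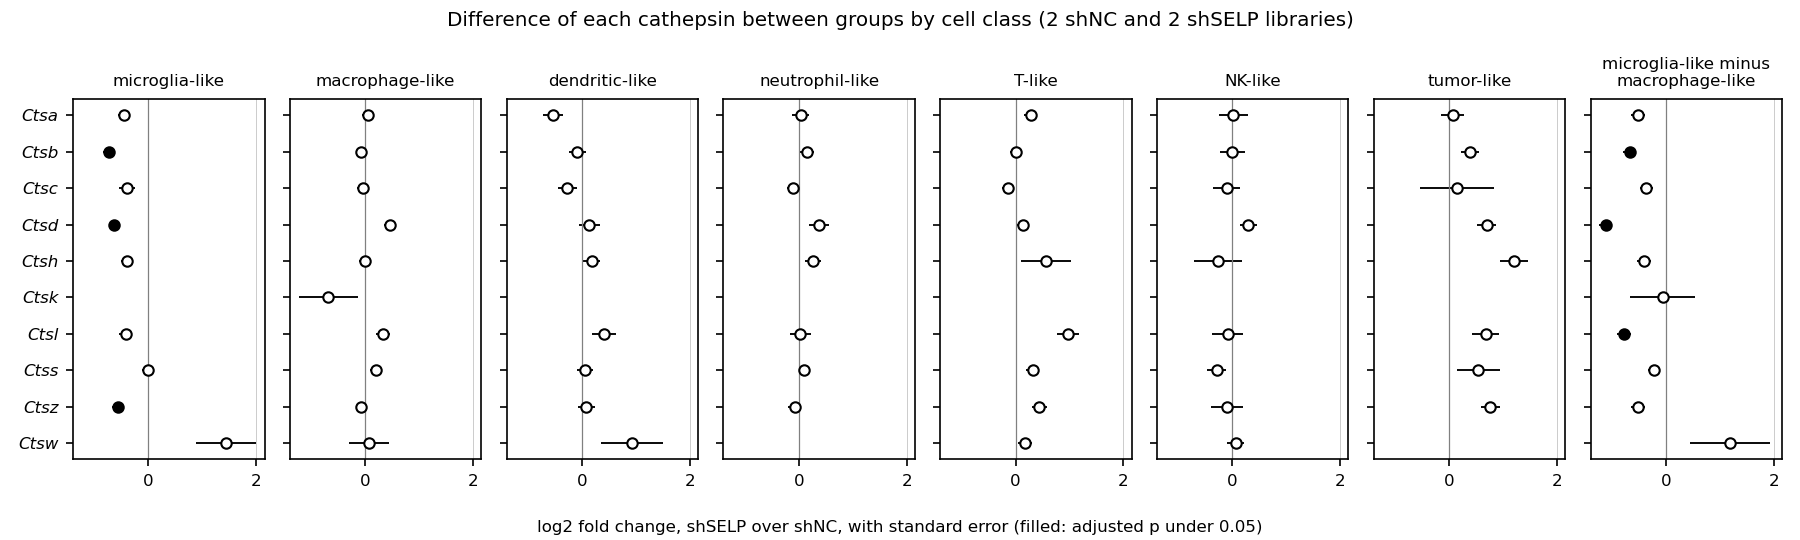
Log2 fold change of shSELP over shNC for each cathepsin tested, with its SE, in 7 classes of the whole-tumor mix and for the microglia-like minus the macrophage-like response; filled points passed an adjusted p of 0.05. Filled points are Ctsb, Ctsd and Ctsz in microglia-like cells and Ctsb, Ctsd and Ctsl in the difference.

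In tumor-like cells 5 of the 8 members tested were higher in both shSELP libraries than in both shNC libraries, and none passed the test over all genes. Ctsl stood at 427 and 786 CPM in shNC and at 945 and 1003 in shSELP, and Ctsh at 80.2 and 147 against 273 and 251. Ctsz stood at 146 and 193 CPM in shNC and at 275 and 303 in shSELP, and Ctsd at 148 and 167 against 224 and 291. Ctsb, at 192 and 184 CPM against 222 and 272, was the fifth. Of all genes tested, 52.6% had groups that did not overlap, in either direction. Ctsk, with 2, 3, 2 and 1 UMIs, had too few counts to be tested. edgeR called 0 of the 8 members tested, against 0.0493% of 10140 genes, and 5 had an unadjusted p under 0.05, as had 1986 of these genes. DESeq2 called 2 of 7 members, Ctsh and Ctsz, against 2.94% of 4049 genes. Ctsh was at 1.2 (SE 0.254, adjusted p = 0.0836), Ctsz at 0.76 (SE 0.179, 0.0984), Ctsd at 0.70 (SE 0.177, 0.110), Ctsl at 0.68 (SE 0.255, 0.202) and Ctsb at 0.38 (SE 0.168, 0.251). The median over the 8 members was 0.61.

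The make-up of the tumor-like class also changed between groups. Cluster 8, led by Col9a2 and Matn2, held 62.8% of tumor-like cells in shNC and 26.2% in shSELP, and cluster 9, a shallow cluster with a median of 2694.5 UMIs per cell led by Cdc20 and Cdk1, held 37.2% and 73.8%. In cluster 8 alone edgeR called 0 of 8 members against 0.0314% of genes, and 2 had an unadjusted p under 0.05, as had 744 of 9544 genes. In cluster 9 alone it called 3, Ctsd (1.23), Ctsh (1.51) and Ctsl (1.10), among 1.70% of 6901 genes. The median over the 8 members was 0.51 in cluster 8, 0.82 in cluster 9 and 0.61 in the whole class. Without shNC 2 the calls were Ctsz (0.93), Ctsd (0.74), Ctsh (1.65) and Ctsl (1.13), among 1060 of 8807 genes (12%). Without shNC 1 they were Ctss (1.43) and Ctsh (0.83), among 341 of 8789 genes (3.88%). Ctss is at the level of free RNA in this class, and shNC 2, the control then left, had the lowest background sum (0.390% of the macrophage-like level against 0.820% to 0.879%) and the lowest Ctss (23.8 CPM against 60.3 to 68.4). The 11 tumor markers, with Prph most abundant and 1 at 0, summed to 3290 and 2325 CPM in shNC and 1932 and 1561 in shSELP. The macrophage markers, with Fn1 most abundant, summed to 624, 602, 720 and 681 CPM in the same order, the cycling genes to 677, 573, 715 and 1086, the Ms4a7-state genes to 899, 1168, 1612 and 1310 and the NK markers to 2.90, 1.42, 8.90 and 88.9. The 7 tested background genes of free RNA all had positive estimates, with 0 called and a median of 0.37 against −0.03 over all genes. The part of these genes, of the markers and of the clusters in the tumor-like values was not tested.

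In T-like cells Ctsl stood at 14.7 and 19 CPM in shNC and at 31.1 and 34.1 in shSELP. edgeR called 0 of 9 members, against 0.0632% of 9491 genes, and 4 members had an unadjusted p under 0.05, as had 1072 of these genes. DESeq2 called 0 of the 4 members its filter kept, against 4.24% of 1109 genes. Ctsl was at 0.97 (SE 0.198, adjusted p = 0.134), and was called without shNC 2 (1.16, adjusted p = 0.00673), without shSELP 1 (0.99, 0.00612) and without shSELP 2 (0.92, 0.0304). These fits called 3.07%, 1.42% and 2.66% of all genes. Without shNC 2, Ctsz was called too (0.62, adjusted p = 0.0273). In CPM, 7 of the 9 members did not overlap between groups, 6 higher and 1 lower, against 43.4% of genes. The level of Ctsl in T-like cells is 2.27% to 4.96% of its macrophage-like level, a little above the free-RNA span. The 8 background genes of free RNA all had positive estimates in T-like cells as well, with 0 called and a median of 0.66 against 0.01 over all genes. C1qa among them stood at 28.8 and 24.99 CPM in shNC and at 43.9 and 66.8 in shSELP. The cycling cluster 13 held 27.1% of T-like cells in shNC and 16.4% in shSELP, while clusters 4 and 5 went opposite ways in the shSELP libraries. Cluster 4 held 37.8% and 39.8% in shNC against 55.1% and 28.2% in shSELP, and cluster 5 held 33.2% and 35.1% against 32% and 52.7%. The 5 erythroid markers, with Hbb-bs most abundant, summed to 0 and 0 CPM in shNC and to 1166 in shSELP 1 and 0.257 in shSELP 2. The part of free RNA, of these markers and of these clusters in the value of Ctsl was not tested. Ctsw, the lymphoid member, stood at 355.0 and 353 CPM in shNC and at 431 and 363 in shSELP.

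Dendritic-like, neutrophil-like and NK-like cells gave no member past the test. In dendritic-like cells edgeR called 0 of 9 against 0.206% of genes. There 1 member, Ctsa at −0.53, had an unadjusted p under 0.05, as had 538 of 7770 genes. DESeq2 called 0 of 10 against 0.113% of genes, and 2 of 9 members did not overlap, both lower, against 36.7% of genes. Markers of other cells moved in this class: the neutrophil markers, with S100a8 most abundant, summed to 15.4 and 14.97 CPM in shNC and 4208 and 3346 in shSELP. The 6 plasma cell markers, with Jchain most abundant, summed to 704 and 673 CPM against 61.1 and 48.8, and the part of both in the cathepsin values was not tested. In neutrophil-like cells edgeR called 0 of 8 against 0.136% of genes, with 0 at an unadjusted p under 0.05 against 316 of 5870 genes. DESeq2 called 0 of 8 against 0.296%, and 4 of 8 did not overlap, 3 higher and 1 lower, against 34.3%. Without shSELP 2, Ctsd was called higher in neutrophil-like cells (0.61, adjusted p = 0.0418), among 92 of 6082 genes (1.51%). The shSELP value then rests on shSELP 1, where the 7 neutrophil markers, with S100a8 most abundant, summed to 30141 CPM against 5035 in shNC 1, 3695 in shNC 2 and 3630 in shSELP 2. The part of these markers was not tested. In NK-like cells edgeR called 0 of 9 against 0.0347% of genes, with 0 at an unadjusted p under 0.05 against 273 of 5762 genes. DESeq2 called 0 of 9 against 0.0144%, and 3 of 9 did not overlap, 1 higher and 2 lower, against 34.2%. Ctsw in NK-like cells stood at 417 and 467 CPM in shNC and at 427 and 525 in shSELP.

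In the CD11b+ cells, with 1 library per group, 6 of the 8 members with at least 1000 UMIs were higher in shSELP, as were 53.6% of the 2817 genes with as many. Values are ratios of CPM, shSELP over shNC, with 95% exact intervals that cover counting error only. Over all CD11b+ cells the 10 members together were at 1.18 (1.17 to 1.19), and 0 of these 8 members passed a 1.5-fold difference, against 7.14% of these genes. Their median ratio was 1.12 and that of the genes 1.02. Scaling the libraries by TMM lowered the sum to 1.11, so part of the size depends on the scaling.

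In CD11b+ macrophage-like cells, 2009 in shNC and 2262 in shSELP, Ctsb was at 2088 CPM in shNC and 2805 in shSELP, a ratio of 1.34 (1.32 to 1.37). Ctsd was at 1515 and 1961 CPM (1.29, 1.27 to 1.32), Ctsc at 1137 and 1452 (1.28, 1.246 to 1.31) and Ctss at 4446 and 5401 (1.21, 1.2 to 1.23). Ctsh, at 0.983 (0.954 to 1.01), and Ctsa, at 1.04 (0.995 to 1.09), had intervals that include 1, and Ctsz was at 0.944 (0.925 to 0.964). Of the 8 members with at least 1000 UMIs 6 were above 1, with a median ratio of 1.16. Of the 2347 genes with as many in this class 51.6% were above 1, with a median of 1.01. The clusters of this class differed in share: cluster 7, led by Ifit3, Cmpk2 and Mx1, held 4.73% of it in shNC and 12.1% in shSELP, and cluster 5, led by Cxcl3 and Inhba, held 11.9% and 8.13%. Within its 9 clusters the ratio ran from 1.27 to 1.63 for Ctsb, from 1.17 to 1.78 for Ctsd and from 1.05 to 1.42 for Ctss. In CD11b+ microglia-like cells, 239 in shNC and 217 in shSELP, Ctsd was at 8511 CPM in shNC and 10440.0 in shSELP (1.23, 1.2 to 1.26) and Ctsb at 5158 and 5926 (1.15, 1.11 to 1.19). Ctsz, at 0.993 (0.954 to 1.03), had an interval that includes 1, and Ctsl, at 0.880 (0.828 to 0.934), and Ctsh, at 0.851 (0.786 to 0.921), were lower. Ctsa was lower too, with an interval below 1: taken as shNC over shSELP, its ratio was 1.13 (1.04 to 1.24). Ctsc was at 1.38 (1.28 to 1.49) and Ctss at 1.06 (1.03 to 1.10). Of the 8 members 4 were above 1 in this class, with a median ratio of 1.03. Of its 351 genes with at least 1000 UMIs 35.0% were above 1, with a median of 0.951, so 1 is not the middle of the genes here. So Ctsb and Ctsd were higher with shSELP in microglia-like cells of the CD11b+ sort and lower in those of the mix, while the labelled day, the sort and the replication differ between the experiments and this difference was not tested. It also rests on the labels of the CD11b+ libraries. With those labels exchanged, ratios would be 0.870 (0.843 to 0.899) for Ctsb and 0.815 (0.796 to 0.835) for Ctsd, lower as in the mix. Ctsc, at 0.724, and Ctss, at 0.941, would be below 1 too. Ctsa, at 1.13, Ctsl, at 1.14, and Ctsh, at 1.18, would then be above 1, and Ctsz near it at 1.01. Each of these last genes was lower with shSELP in the mix, so an exchange would not bring all members to the direction of the mix. Ctsk had 40 UMIs in shNC and 82 in shSELP over all CD11b+ cells, a ratio of 2.25 (1.53 to 3.37), and Ctsw had 16 and 7.

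**Figure D4:**
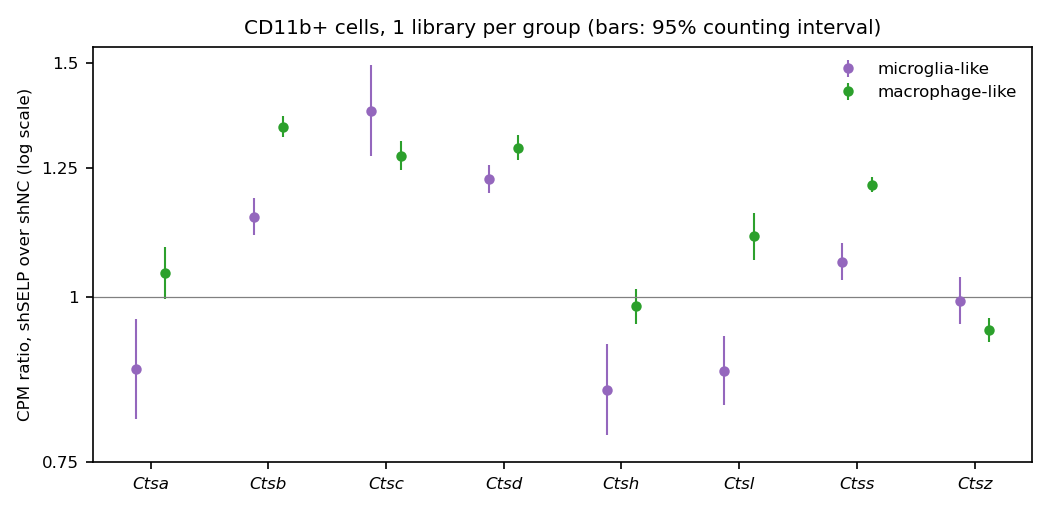
Ratio of CPM, shSELP over shNC, for 8 cathepsins in microglia-like and macrophage-like CD11b+ cells, with 95% intervals for counting error and 1 library per group. Ctsb, Ctsc, Ctsd and Ctss lie above 1 in both classes, and the intervals of Ctsa, Ctsl and Ctsh lie below 1 in microglia-like cells.

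The members lie on 7 of the mouse chromosomes in GRCm38 (mm10), by the GENCODE annotation. Ctsk (chr3:95499256-95509362) and Ctss (chr3:95526786-95556403) lie 17423 bases apart on the plus strand with 0 annotated genes between them, although their levels by class differ as described. Ctsa is at chr2:164832873-164841032, plus strand, and Ctsz is at chr2:174427493-174439039, minus strand. Ctsc is at chr7:88278085-88310888, plus strand, and Ctsd at chr7:142375911-142388038, minus strand. Ctsb is at chr14:63122462-63145923, plus strand, Ctsh at chr9:90054152-90076089, plus strand, Ctsl at chr13:64359337-64370890, minus strand, and Ctsw at chr19:5465043-5468507, minus strand. Protein-coding genes on the other strand overlap Ctsa (Neurl2 and Pltp), Ctsb (Fdft1), Ctsz (Nelfcd) and Ctsw (Fibp), and Gm49369, which the count table does not list, overlaps Ctsd on the same strand. Noncoding genes or pseudogenes overlap Ctsc (Gm26522), Ctsl (Gm47123 and Gm49230) and Ctss (Hmgb1-ps5).

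Promoter sequences, 250 bases before to 50 after the start of a gene as RefSeq places it (GRCm38.p6), were used, where 7 members matched 8 entries and Ctsb, Ctsh and Ctsw did not. Each was searched on both strands for CACGTG, the E-box core of the site of the lysosomal factor TFEB and for GAGGAA, a core of the site of the myeloid factor PU.1. No entry held both. CACGTG was in 3 of the 8 entries, for Ctsd, Ctsl and 1 of 2 starts of Ctsa, against 7.15% of 32851 promoters. GAGGAA was in 3 others, for Ctsc, Ctsk and Ctss, against 28.3%, and Ctsz and the other start of Ctsa held neither. The promoters of Ctsd and Ctsz, which fell together in microglia-like cells, of Ctsl, which differed in response between the classes, and of Ctss, which did not pass any of these tests, are shown 5′ to 3′ with the motifs found in capitals. Their windows are chr7:142387778-142388077 on the minus strand for Ctsd, chr2:174438990-174439289 on the minus strand for Ctsz, chr13:64370471-64370770 on the minus strand for Ctsl and chr3:95526536-95526835 on the plus strand for Ctss. The starts of Ctsz and Ctss are the same as in the GENCODE positions above, and those of Ctsd and Ctsl differ. The window of Ctsd lies mostly inside the gene as GENCODE gives it, and the windows of Ctsl and of the Ctsa start with CACGTG lie wholly inside. A match is a description of letters in the window.
Ctsd: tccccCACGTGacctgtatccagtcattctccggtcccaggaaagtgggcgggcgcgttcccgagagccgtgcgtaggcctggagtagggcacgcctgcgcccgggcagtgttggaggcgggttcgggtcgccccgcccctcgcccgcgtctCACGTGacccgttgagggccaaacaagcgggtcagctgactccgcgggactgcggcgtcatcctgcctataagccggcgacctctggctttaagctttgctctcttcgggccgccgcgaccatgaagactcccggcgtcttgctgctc
Ctsz: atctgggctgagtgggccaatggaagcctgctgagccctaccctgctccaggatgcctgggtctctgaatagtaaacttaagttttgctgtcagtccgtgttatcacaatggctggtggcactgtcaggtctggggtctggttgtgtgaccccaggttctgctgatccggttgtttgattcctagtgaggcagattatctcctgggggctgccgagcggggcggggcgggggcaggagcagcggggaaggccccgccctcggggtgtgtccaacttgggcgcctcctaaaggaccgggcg
Ctsl: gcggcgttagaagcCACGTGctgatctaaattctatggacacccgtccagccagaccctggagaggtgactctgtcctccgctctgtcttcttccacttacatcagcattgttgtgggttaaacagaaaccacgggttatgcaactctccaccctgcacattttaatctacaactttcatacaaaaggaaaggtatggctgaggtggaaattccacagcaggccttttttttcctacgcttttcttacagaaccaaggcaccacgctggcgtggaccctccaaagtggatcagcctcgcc
Ctss: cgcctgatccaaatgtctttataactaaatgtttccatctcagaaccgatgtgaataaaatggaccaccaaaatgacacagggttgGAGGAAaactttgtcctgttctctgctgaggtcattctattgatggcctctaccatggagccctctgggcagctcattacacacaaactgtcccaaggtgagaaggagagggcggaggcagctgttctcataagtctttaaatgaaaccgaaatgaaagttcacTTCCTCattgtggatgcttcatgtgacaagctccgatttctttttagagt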

How the data were processed

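Single-cell counts of 4 whole-tumor-mix and 2 CD11b+ libraries were used as the authors deposited them: raw UMI counts per gene and cell, aligned to mm10 with Cell Ranger 1.3. The labels give kit version 2 and the methods version 3. The members and the gene and marker lists, the tumor markers H19, Prph, Col9a2 and Matn2 included, were chosen with earlier results of these data known. Cells with under 500 genes or over 10% mitochondrial UMIs were left out. Cells were clustered with Seurat 5.3.0 (2000 variable genes less the members, 12 principal components in the mix, 8 in CD11b+ cells, resolution 0.8). Each cluster was named from the marker list with the highest score, provided that at least 3 markers were detected in at least 10% of its cells. Shallow clusters without a marker among their 10 leading genes, and clusters led by genes of another class, stayed unnamed. The scoring was chosen after seeing the data.

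UMIs were summed per library and class, and 7 classes chosen beforehand, each with at least 20 cells in each of the 4 libraries, were tested with edgeR 4.0.16 (filterByExpr, TMM, glmQLFit and glmQLFTest, two-sided, Benjamini-Hochberg over all genes tested, threshold 0.05) in R 4.3.3. Endothelial-like cells, 22, 32, 351 and 78 in number, were not tested. The SE is the size of the log2 fold change over the root of F. The difference in response used 1 fit with library as a block, and leaving out each library was its only alternative. The test was tried on simulated counts with 200 genes changed, each by more than the members called in the main fits. It therefore does not show how well changes of their size are found. CD11b+ ratios carry exact conditional binomial intervals. Named genes are all 10 members, and from each list in macrophage-like and microglia-like cells up to 4 genes past the test by size or else the 2 most abundant, where of marker and state lists only genes past the test are printed. For each member, the 3 genes most alike are named. Alternatives were DESeq2 1.42.0, no TMM, no filter on low counts, leaving out each library, a replicate block by library number, cells thinned to 2000 UMIs, Scrublet calls (scanpy 1.11.5) left out, resolutions 0.4 and 1.2, members allowed among the variable genes, and a gate on single cells. Those added after seeing the data were single clusters, shallow clusters moved, and a crossed block in tumor-like cells. Tables and figures used Python 3.11.15, numpy 2.4.6, scipy 1.17.1, pandas 2.3.3 and matplotlib 3.10.9.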

Additional observations from a re-analysis of the deposited data

Results flagged for a closer look

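The responses of Ctsb, Ctsd and Ctsl to shSELP differed between microglia-like and macrophage-like cells by the test of the difference itself, with log2 differences of −0.67 for Ctsb, −1.11 for Ctsd and −0.78 for Ctsl. The difference of Ctsb did not pass without shNC 2 (−0.65, adjusted p = 0.0653). Over 7 classes of the mix, 7 of the 8 members tested in each had both shSELP libraries above both shNC libraries in some classes and below both in others, as had 59.7% of the 4524 genes tested in each. Of all genes tested in a class, 34.2% to 52.6% had groups that did not overlap. Differences between classes were not tested, apart from the one between microglia-like and macrophage-like cells. Ctsa was above in 1 class (T-like) and below in 2 (dendritic-like and microglia-like). Ctsb was above in 1 class (tumor-like) and below in 2 (macrophage-like and microglia-like). Ctsd was above in 5 classes (NK-like, T-like, macrophage-like, neutrophil-like and tumor-like) and below in 1 (microglia-like). Ctsh was above in 2 classes (neutrophil-like and tumor-like) and below in 1 (microglia-like). Ctsl was above in 3 classes (T-like, macrophage-like and tumor-like) and below in 1 (microglia-like). Ctss was above in 2 classes (T-like and neutrophil-like) and below in 1 (NK-like). Ctsz was above in 2 classes (T-like and tumor-like) and below in 3 (macrophage-like, microglia-like and neutrophil-like).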

How the results depend on the processing

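The number of members called depended on the fit, and so did the share of all genes called, given in parentheses. It was 0 (1.36%) in macrophage-like cells and became 1 with DESeq2 (1.47%), 2 without a filter on low counts (4.96%), 1 with a replicate block (4.09%) and 0 to 1 when a library was left out (0.0447% to 3.78%). In microglia-like cells it was 3 (1.52%) and became 6 with DESeq2 (16%), 7 without a filter (3.67%), 7 with a replicate block (7.54%), 2 to 5 when a library was left out (0.780% to 5.98%), 0 with shallow clusters moved (0.178%), 0 in cluster 10 alone (0.0813%) and 1 in cluster 14 alone (0.185%). In T-like cells it was 0 (0.0632%) and became 1 without a filter (1.79%), 1 with a replicate block (2.13%), 1 at resolution 1.2 (0.114%) and 0 to 2 when a library was left out (0.182% to 3.07%). In tumor-like cells it was 0 (0.0493%) and became 2 with DESeq2 (2.94%), 4 without a filter (4.86%), 4 with a replicate block (6.66%), 4 with a crossed replicate block (6.99%), 3 in cluster 9 alone (1.70%) and 0 to 4 when a library was left out (0.0440% to 12%). When a library was left out it was 0 to 1 in neutrophil-like cells (0.458% to 1.51%) and 2 to 4 in the difference in response (0.899% to 2.34%), and 0 in NK-like and dendritic-like cells under all alternatives run. Reversed estimates, none of them called, were in macrophage-like cells Ctsa (−0.017 without TMM, −0.10 in cluster 0, −0.038 to 0.15 leaving out a library), Ctsb (0.11 in cluster 2), Ctsc (−0.16 to 0.062 leaving out a library), Ctsh (0.068 thinned, 0.0072 at resolution 1.2, 0.0012 with members among the variable genes, 0.13 in cluster 1, 0.068 in cluster 2, −0.083 to 0.080 leaving out a library), Ctsz (0.078 in cluster 1) and Ctsw (−1.70 at resolution 1.2, −0.27 to 0.55 leaving out a library). Ctsk ran from −1.43 to 0.63 leaving out a library (called without shNC 1, and also without a filter), and its difference in response from −0.25 to 5.66. In microglia-like cells Ctsc was at 0.050 in cluster 10, and Ctss at 0.059 without TMM, 0.035 with the gate, 0.00043 with shallow clusters moved and −0.11 to 0.075 leaving out a library. The CD11b+ sum of 1.18 became 1.11 with TMM, that of macrophage-like cells, also 1.18, became 1.11 with TMM and 1.23 with the gate, and that of microglia-like cells, 1.11, became 1.07 with TMM. Causes of these changes were not tested, beyond fewer cells in single clusters and fewer libraries when one is left out. The gate left too few neutrophil-like cells, and at resolution 0.4 NK-like cells merged with T-like cells, so neither gave a value. With 1 library left in a group, it is assumed to vary like the others. Among the tested classes, macrophage-like or microglia-like cells held the highest level of 9 of 10 members, as also with cells thinned and with the gate.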
